A study of Aconitum japonicum with 4 samples.

Results

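The last enzymes of the mevalonate (MVA) pathway before isopentenyl diphosphate are mevalonate kinase (MVK), phosphomevalonate kinase (PMK) and mevalonate diphosphate decarboxylase (MVDD). In the de novo assembly of *Aconitum japonicum* they are represented by 5 of 129760 transcripts, chosen by transcript ID from the pathway table of the study. MVK has 3 transcripts, TR50024|c0_g1_i2, TR50024|c0_g1_i4 and TR50024|c0_g1_i3, PMK has TR52617|c1_g1_i4 and MVDD has TR50920|c0_g1_i1. The 5 transcripts fall into 3 Trinity genes, which are groups of related transcripts made by the assembler. All 3 MVK transcripts belong to the same Trinity gene, so they share sequence and are not independent of each other.

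*A. japonicum* is a medicinal monkshood that makes diterpene alkaloids, and the study asked in which tissues these compounds are made. RNA of 4 tissues, daughter root, mother root, rootlet and leaf, was sequenced with 1 library per tissue, from plants grown at a university in Hokkaido with no treatment. The sources used here give no genotype or age for the plants, and no genome was used, so the transcripts have no genomic position. With 1 library per tissue, no difference between tissues has a replicate check and no test between tissues was made.

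In plants, isopentenyl diphosphate, the unit from which all terpenoids are built, comes from the MVA pathway in the cytosol and peroxisomes and from the methylerythritol phosphate (MEP) pathway in plastids. HMGR makes mevalonate and is the best known control point of the MVA pathway. MVK and PMK then add phosphate groups to mevalonate in turn, and MVDD removes a carboxyl group to give isopentenyl diphosphate. Diterpenes, and with them the backbone of the diterpene alkaloids, are built from geranylgeranyl diphosphate, which is made from such units.

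The libraries held 12792781 fragments in daughter root, 11801534 in mother root, 4492151 in rootlet and 4516426 in leaf. Expression is given as FPKM, fragments scaled to the effective length of the transcript and to the size of the library, with exact 95% Poisson limits. Ratios between libraries have conditional binomial (Clopper-Pearson) 95% limits. All of these limits cover counting error only, and neither the variation between plants nor that of library preparation. The depth set the lowest level that could be read, since 3 fragments per 1000 effective bases made 0.235 FPKM in daughter root, 0.254 in mother root, 0.668 in rootlet and 0.664 in leaf. The leaf label was checked with 4 transcripts annotated as rubisco activase, a chloroplast enzyme, whose summed FPKM was 0.73 in daughter root, 0.79 in mother root, 0.69 in rootlet and 272.7 in leaf. TR19549|c0_g1_i1, TR29275|c0_g1_i1 and TR29275|c0_g1_i2 had 0 fragments in the root libraries, and TR17798|c0_g1_i1 had 1 to 3 fragments in every library. No marker of a root type was used. In such bulk samples, fewer cells of a type and less RNA per cell cannot be told apart.

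All 5 transcripts had their highest FPKM in daughter root and their lowest in leaf. For PMK, leaf and rootlet were a near tie, at 8.62 and 8.66 FPKM with 76 fragments each. For TR50024|c0_g1_i3, the limits of all 6 ratios between libraries included 1. Among the 49319 transcripts with at least 20 fragments over the 4 libraries, 21.6% were highest in daughter root, 34.2% were lowest in leaf and 10.9% were both. The drop in leaf was large for MVDD and small for the others, and PMK was set apart by daughter root alone. In the lowest library, leaf, the 5 transcripts lay within 2.10 to 8.62 FPKM, and in daughter root they spread over 4.43 to 33.0 FPKM. The order of the leaf and mother root levels of TR50024|c0_g1_i4 depended on the scaling. With median-of-ratios factors its lowest level was in mother root, and 4 of 5 transcripts were then lowest in leaf.

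**Figure D1:**
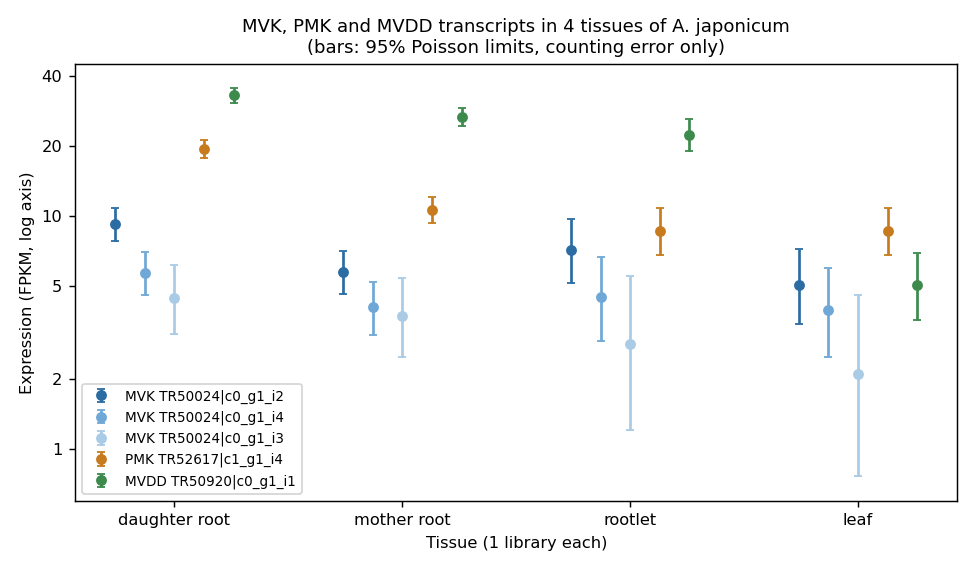
FPKM on a log axis of the 3 MVK transcripts, PMK and MVDD in the libraries of daughter root, mother root, rootlet and leaf, 1 library each. Points are the deposited values and bars the exact 95% Poisson limits on the fragment counts; MVDD lies above the other transcripts in the root libraries and falls to 5.05 FPKM in leaf, where PMK has 8.62.

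MVK, which makes phosphomevalonate from mevalonate, was led in every library by TR50024|c0_g1_i2, a transcript of 1456 bases. It had 9.20 FPKM in daughter root (limits 7.80 to 10.8, 154 fragments), 5.77 in mother root (4.63 to 7.09, 89 fragments), 7.15 in rootlet (5.15 to 9.66, 42 fragments) and 5.08 in leaf (3.43 to 7.25, 30 fragments). Daughter root was the highest library, and the limits of mother root, rootlet and leaf overlapped. The ratio of daughter root over mother root was 1.59 (1.22 to 2.09) and that over leaf was 1.81 (1.22 to 2.78). The limits of the other 4 ratios of this transcript included 1.

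TR50024|c0_g1_i4, of 1383 bases, had 5.69 FPKM in daughter root (4.58 to 7.0, 90 fragments), 4.05 in mother root (3.08 to 5.22, 59 fragments), 4.51 in rootlet (2.92 to 6.65, 25 fragments) and 3.95 in leaf (2.47 to 5.97, 22 fragments). TR50024|c0_g1_i3, the shortest MVK transcript with 782 bases, had 4.43 FPKM in daughter root (3.10 to 6.14, 36 fragments), 3.74 in mother root (2.49 to 5.41, 28 fragments), 2.81 in rootlet (1.21 to 5.54, 8 fragments) and 2.10 in leaf (0.770 to 4.56, 6 fragments). The limits overlapped between all libraries for both transcripts. For TR50024|c0_g1_i4, the ratio of daughter root over mother root, 1.40, had a lower limit that was only just above 1 (1.0006 to 1.99). For TR50024|c0_g1_i3, all 6 ratios had limits that included 1, and its largest, 2.11 for daughter root over leaf, had limits of 0.880 to 6.13. With 14 fragments in rootlet and leaf together, a difference of this transcript between those tissues was not detectable at this depth.

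Summed over the 3 transcripts, MVK had 19.3 FPKM in daughter root (17.1 to 21.7), 13.6 in mother root (11.6 to 15.7), 14.5 in rootlet (11.4 to 18.1) and 11.1 in leaf (8.45 to 14.4). Daughter root was above each of the other libraries, by 1.42 times over mother root (1.18 to 1.73), 1.34 times over rootlet (1.03 to 1.75) and 1.74 times over leaf (1.3 to 2.34). With limits widened for 30 ratios, that over rootlet included 1 (0.892 to 2.06). The other libraries were not separated by counting error. Mother root over rootlet was 0.937 (0.711 to 1.24), mother root over leaf 1.22 (0.901 to 1.67) and rootlet over leaf 1.3 (0.911 to 1.86). MVK had the smallest ratio of its highest over its lowest library of the 3 enzymes.

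No change in the division of MVK among its transcripts was detectable between tissues at this depth. TR50024|c0_g1_i2 held 47.6% of the summed FPKM in daughter root, 42.6% in mother root, 49.4% in rootlet and 45.6% in leaf. Its share of the MVK fragments was 55.0% (49.0% to 60.9%) in daughter root, 50.6% (42.9% to 58.2%) in mother root, 56.0% (44.1% to 67.5%) in rootlet and 51.7% (38.2% to 65.0%) in leaf, with exact binomial limits that overlapped throughout. TR50024|c0_g1_i3 took 12.9% of the fragments in daughter root (9.17% to 17.4%), 15.9% in mother root (10.8% to 22.2%), 10.7% in rootlet (4.72% to 19.9%) and 10.3% in leaf (3.89% to 21.2%). These limits are too wide to show that its share was stable. The deposited counts are whole numbers, and how fragments that match several MVK transcripts were divided could not be seen in them, so the sum is better founded than the split.

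PMK, which converts phosphomevalonate to mevalonate diphosphate, was a single transcript of 2101 bases in a Trinity gene of its own. TR52617|c1_g1_i4 had 19.4 FPKM in daughter root (17.7 to 21.2, 485 fragments), 10.6 in mother root (9.34 to 12.05, 245 fragments), 8.66 in rootlet (6.83 to 10.8, 76 fragments) and 8.62 in leaf (6.79 to 10.8, 76 fragments). Daughter root stood above the rest, and its limits overlapped with those of no other library. The ratio of daughter root over mother root was 1.83 (1.56 to 2.14), that over rootlet 2.24 (1.76 to 2.89) and that over leaf 2.25 (1.76 to 2.91). The limits of the ratios among mother root, rootlet and leaf included 1. Mother root over rootlet was 1.23 (0.945 to 1.61), that of mother root over leaf 1.23 (0.95 to 1.62; 1.43 and 1.10 to 1.87 with TPM) and that of rootlet over leaf 1.0 (0.721 to 1.40).

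Set among all transcripts longer than 1000 bases, PMK lay above 79.9% of them in daughter root, 65.6% in mother root, 60.5% in rootlet and 59.1% in leaf. TR50024|c0_g1_i2 lay above 63.3%, 49.2%, 55.9% and 44.2% of them in daughter root, mother root, rootlet and leaf. Both transcripts had their highest place in daughter root.

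MVDD, the decarboxylase that releases isopentenyl diphosphate, had the highest level of the 3 enzymes in every root library. TR50920|c0_g1_i1, of 1814 bases, had 33.0 FPKM in daughter root (30.6 to 35.5, 703 fragments), 26.55 in mother root (24.3 to 28.9, 522 fragments), 22.3 in rootlet (19.1 to 26.0, 167 fragments) and 5.05 in leaf (3.57 to 6.93, 38 fragments). Leaf stood far below the root libraries. The root libraries differed from each other by much less, with ratios of 1.24 for daughter root over mother root (1.11 to 1.39), 1.48 for daughter root over rootlet (1.25 to 1.76) and 1.19 for mother root over rootlet (0.997 to 1.42). The ratio over leaf was 6.53 for daughter root (4.71 to 9.30), 5.26 for mother root (3.78 to 7.51) and 4.42 for rootlet (3.09 to 6.46). MVDD lay above 88.1% of the transcripts longer than 1000 bases in daughter root, 84.1% in mother root and 80.4% in rootlet, but above 44.1% in leaf.

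The Trinity gene of MVDD holds 1 more transcript, TR50920|c0_g1_i3, of 487 bases, which the pathway table does not list. It had 12.4 FPKM in daughter root (54 fragments), 14.0 in mother root (56 fragments), 6.57 in rootlet (10 fragments) and 1.96 in leaf (3 fragments). It was thus also lowest in leaf, with mother root and daughter root not separated (ratio of daughter root over mother root 0.888, limits 0.599 to 1.31). It took 7.13% of the fragments of the Trinity gene in daughter root, 9.69% in mother root, 5.65% in rootlet and 7.32% in leaf. With both transcripts summed, the level was 45.4 FPKM in daughter root, 40.5 in mother root, 28.9 in rootlet and 7.01 in leaf. Mother root over rootlet was then 1.40 (1.18 to 1.67), with limits that excluded 1 for the sum and not for the listed transcript alone. Daughter root over mother root was 1.12 for the sum (1.003 to 1.25), and its limits included 1 when widened for 30 ratios (0.9402 to 1.33), which those of the listed transcript did not. Limits for the sum treat all fragments alike. The short TR50920|c0_g1_i3 made 27.4% of the summed FPKM in daughter root and 34.5% in mother root, from 54 and 56 fragments. The limits of the sum are therefore too narrow, and a lower limit of 1.003 does not separate daughter root from mother root.

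**Figure D2:**
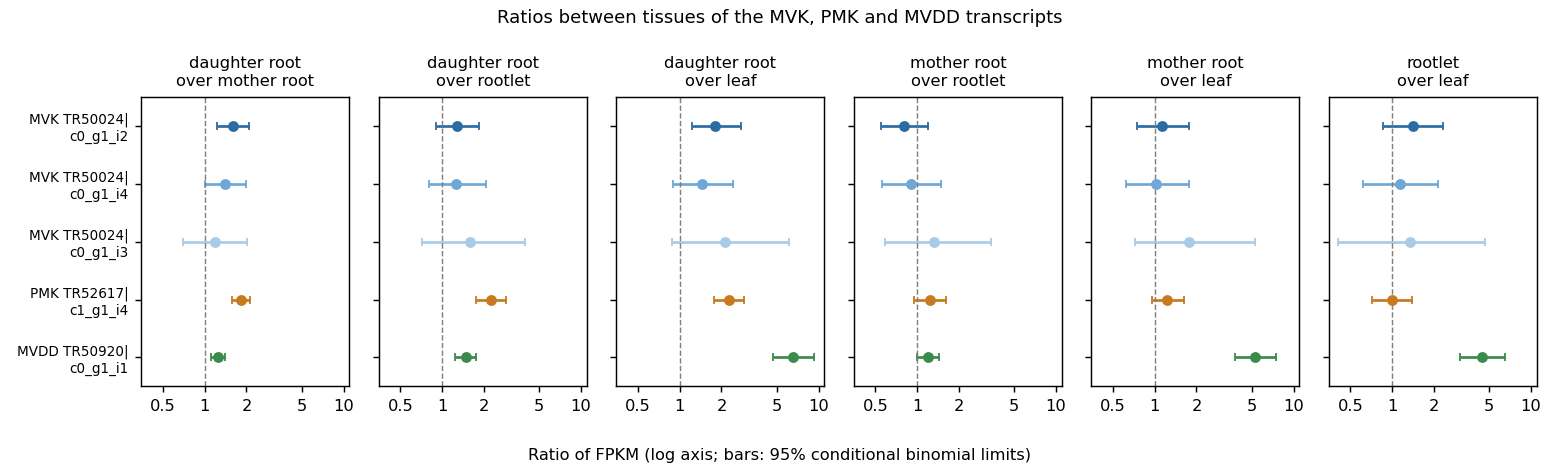
Ratios of FPKM between tissues for each of the 5 transcripts, with 1 panel per tissue pair and a log axis. Bars are 95% conditional binomial limits and the dashed line marks a ratio of 1; the MVDD ratios over leaf, from 4.42 to 6.53, stand apart from those of the other transcripts, and the PMK ratios of daughter root over mother root, rootlet and leaf lie from 1.83 to 2.25.

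Across the 5 transcripts and 6 tissue pairs, the limits of 11 of 30 ratios excluded 1, and 9 did with limits widened for 30 ratios. The 2 lost ratios were those of TR50024|c0_g1_i2 for daughter root over leaf and of TR50024|c0_g1_i4 for daughter root over mother root. All 11 ratios had the first-named tissue higher. This was so for 4 of 5 transcripts in daughter root over mother root, where 21.3% of the transcripts tested had limits above 1. For daughter root over rootlet it was 2 of 5 (28.2% of all), for daughter root over leaf 3 of 5 (31.8% of all) and for mother root over leaf 1 of 5 (32.8% of all). For mother root over rootlet none of the 5 had limits that excluded 1 (25.5% of all above 1), and for rootlet over leaf only MVDD did (34.3% of all). Deep transcripts exclude 1 more easily than shallow ones, and the 5 members span 6 to 703 fragments a library.

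A ratio of at least 2 was found for 6 ratios (8 with TPM and 7 with median-of-ratios scaling). They were PMK for daughter root over rootlet (22.9% of all transcripts tested) and TR50024|c0_g1_i3, PMK and MVDD for daughter root over leaf (27.2% of all). The others were MVDD for mother root over leaf (27.0% of all) and for rootlet over leaf (26.6% of all). None of the 5 reached 2-fold in FPKM for daughter root over mother root, where 13.1% of all transcripts did, although PMK came to 2.11 with median-of-ratios scaling, nor for mother root over rootlet, where 17.8% did. TR50024|c0_g1_i3 had fewer than 20 fragments in rootlet and leaf together and was not tested in that pair.

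The ratios were read against those of all transcripts, because the median ratio of a tissue pair was not always 1. For daughter root over mother root, the 5 transcripts had a median of 1.40 and all transcripts one of 0.879. The medians for daughter root over leaf were 2.11 for the 5 transcripts and 1.04 for all. As 3 of the 5 transcripts are of MVK, both medians were values of single MVK transcripts. They were those of TR50024|c0_g1_i4 (1.40, limits 1.0006 to 1.99) and TR50024|c0_g1_i3 (2.11, limits 0.880 to 6.13). For daughter root over mother root, PMK lay above 84.9% of all transcripts, TR50024|c0_g1_i2 above 81.5%, TR50024|c0_g1_i4 above 77.3%, MVDD above 72.0% and TR50024|c0_g1_i3 above 69.6%. All 5 were thus in the upper part of this distribution without being at its end. MVDD lay above 89.3% of all transcripts and PMK above 75.8% for daughter root over leaf. MVDD lay above 89.9% for mother root over leaf and above 86.6% for rootlet over leaf. For mother root over rootlet the 5 transcripts had a median of 1.19, beside 1.14 for all.

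**Figure D3:**
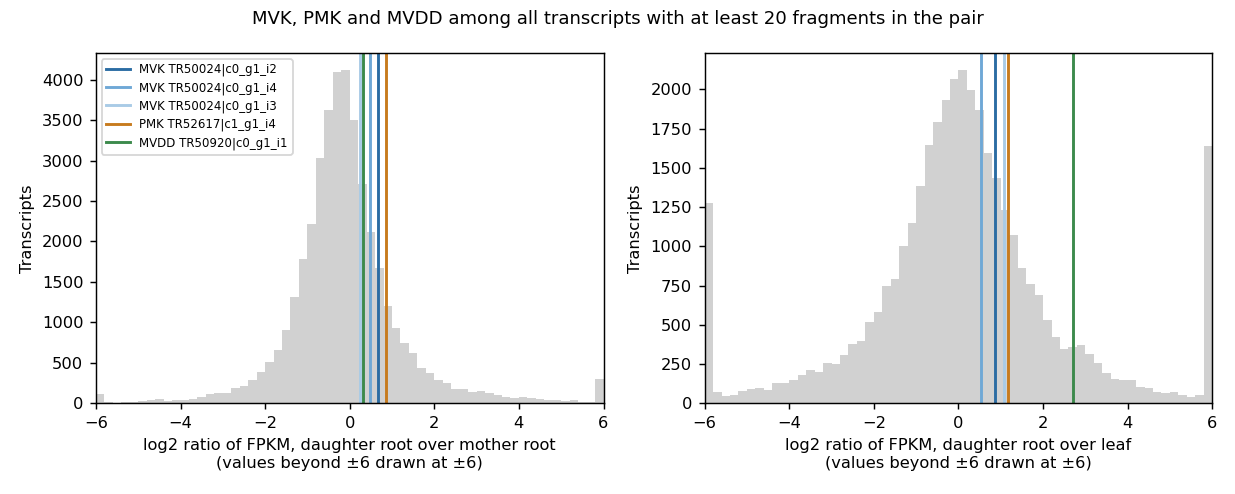
Distribution of the log2 ratio of FPKM over all transcripts with at least 20 fragments in the pair (grey, number of transcripts per bin), for daughter root over mother root on the left and daughter root over leaf on the right, with values beyond the axis drawn at its ends. Coloured lines mark the 5 transcripts; all lie to the right of the middle in both panels, and MVDD is the outermost of them for daughter root over leaf, above 89.3% of all transcripts.

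Levels of the enzymes were next compared within a library, where FPKM is per length. MVDD exceeded PMK by 1.70 times in daughter root (1.51 to 1.91), 2.50 times in mother root (2.14 to 2.92) and 2.58 times in rootlet (1.95 to 3.43). In leaf the order was turned, with an FPKM ratio of MVDD over PMK of 0.586 (0.386 to 0.876). The same was found against the MVK sum, with FPKM ratios of MVDD over MVK of 1.71 in daughter root (1.48 to 1.97), 1.96 in mother root (1.65 to 2.34), 1.54 in rootlet (1.17 to 2.05) and 0.454 in leaf (0.293 to 0.695). This last comparison rests on the summing of MVK, since MVDD over TR50024|c0_g1_i2 alone was 0.994 in leaf. MVDD was counted here as TR50920|c0_g1_i1 alone. With TR50920|c0_g1_i3 added, it had 7.01 FPKM in leaf (5.03 to 9.51). These limits overlapped with those of PMK in leaf, 8.62 FPKM (6.79 to 10.8), and of the MVK sum, 11.1 FPKM (8.45 to 14.4). MVDD thus stayed below both in leaf with this count, by a smaller margin. Overlap of separate limits does not decide whether 2 levels differ, and limits on the ratios with MVDD summed were not computed.

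PMK and MVK were closer to each other. The FPKM ratio of PMK over the MVK sum was 1.0 in daughter root (0.865 to 1.17), 0.784 in mother root (0.643 to 0.957), 0.598 in rootlet (0.429 to 0.835) and 0.774 in leaf (0.543 to 1.11). Here too the direction depended on how MVK was counted, because PMK over TR50024|c0_g1_i2 alone was 2.11 in daughter root, 1.84 in mother root, 1.21 in rootlet and 1.70 in leaf.

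**Figure D4:**
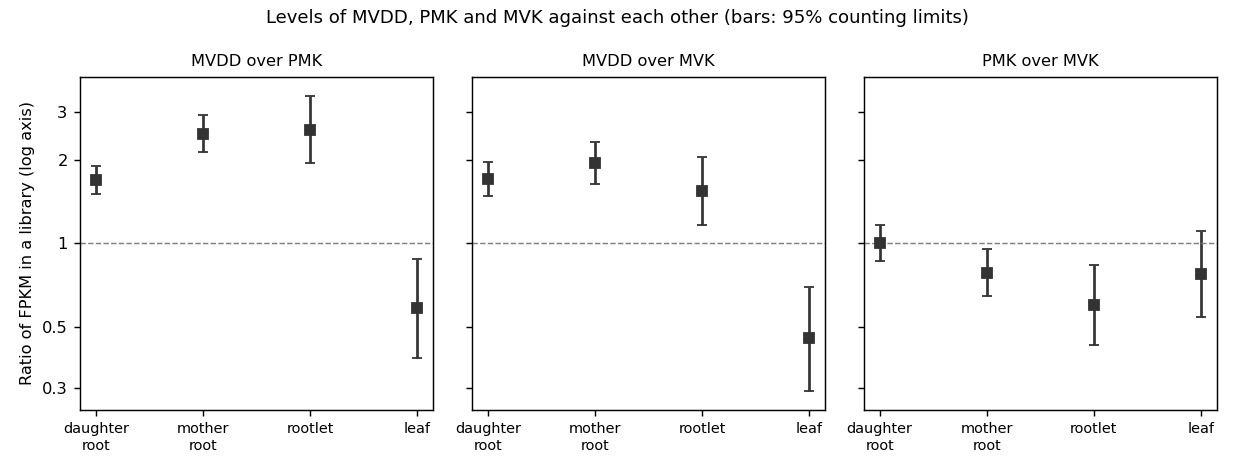
Ratio of FPKM between enzymes within each library on a log axis, for MVDD over PMK, MVDD over the MVK sum and PMK over the MVK sum, in daughter root, mother root, rootlet and leaf. Bars are 95% counting limits and the dashed line marks equal levels. MVDD, counted as TR50920|c0_g1_i1 alone, is above PMK and MVK in the root libraries and below both in leaf, at 0.586 and 0.454.

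The change in the ratio of 2 enzymes between 2 tissues does not depend on the depth or scaling of the libraries. For MVDD against PMK it was 2.90 for daughter root over leaf (1.90 to 4.47), 4.26 for mother root over leaf (2.76 to 6.65) and 4.39 for rootlet over leaf (2.66 to 7.28). For MVDD against MVK it was 3.83 for daughter root over leaf (2.44 to 6.07), 4.53 for mother root over leaf (2.84 to 7.25) and 3.40 for rootlet over leaf (2.02 to 5.73). The deficit of MVDD in leaf was therefore larger than that of PMK or MVK beyond counting error.

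Among the root tissues, the balance of MVDD and PMK was also not constant. It was 0.680 for daughter root over mother root (0.559 to 0.827) and 0.660 for daughter root over rootlet (0.484 to 0.893), which placed daughter root on the side of PMK. For mother root over rootlet it was 0.970, with limits of 0.700 to 1.34. For MVDD against MVK, the limits of all 3 pairs of root tissues included 1. For PMK against MVK, the limits excluded 1 in 1 of 6 pairs, daughter root over rootlet, at 1.71 (1.18 to 2.47).

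The earlier enzymes of the pathway were taken from the same table, which lists 8 more MVA transcripts. These were 3 of acetoacetyl-CoA thiolase (AACT), which joins the first acetyl units, 2 under HMG-CoA synthase (HMGS), which adds the next, and 3 of HMG-CoA reductase (HMGR). TR50259|c0_g1_i1, listed under HMGS, is described in the table as a hydroxymethylglutaryl lyase. While all 5 late transcripts were highest in daughter root and lowest in leaf, 6 of these 8 were highest in daughter root, 2 in rootlet (22.1% of all transcripts) and 2 were lowest in leaf. The count of 5 includes the near tie of PMK in leaf and rootlet, and the MVK transcripts in it share a Trinity gene.

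By sum of listed transcripts, HMGR had 143.2 FPKM in daughter root, 109.8 in mother root, 112.9 in rootlet and 16.7 in leaf. AACT had 56.6, 34.4, 35.5 and 50.7 FPKM in the same order of tissues, and HMGS had 37.4, 35.1, 60.2 and 53.4 FPKM. Of the 6 enzymes by sum, only HMGR and MVDD were lower in leaf by several times against every root library. AACT and HMGS were higher in leaf than in mother root. For HMGR this came from TR50314|c2_g1_i1 and TR50314|c2_g1_i5. TR50314|c1_g1_i1 had 5.71 FPKM in leaf, against 33.3 in daughter root, 4.06 in mother root and 5.33 in rootlet. In each library the lowest of the 6 enzymes was a late one. These sums run over 3 transcripts for AACT, HMGR and MVK, 2 for HMGS and 1 for PMK and MVDD, which lowers the last 2. The lowest was MVK in daughter root, at a level equal to PMK within counting error, PMK in mother root and rootlet, and MVDD in leaf. A late enzyme was lowest in mother root only with TR50259|c0_g1_i1 counted as HMGS. Without it PMK had 10.6 FPKM there, against 9.46 for HMGS. With TR50920|c0_g1_i3 added, MVDD had 7.01 FPKM in leaf, still the lowest. Its limits (5.03 to 9.51) then overlapped with those of PMK, at 8.62 FPKM (6.79 to 10.8).

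**Figure D5:**
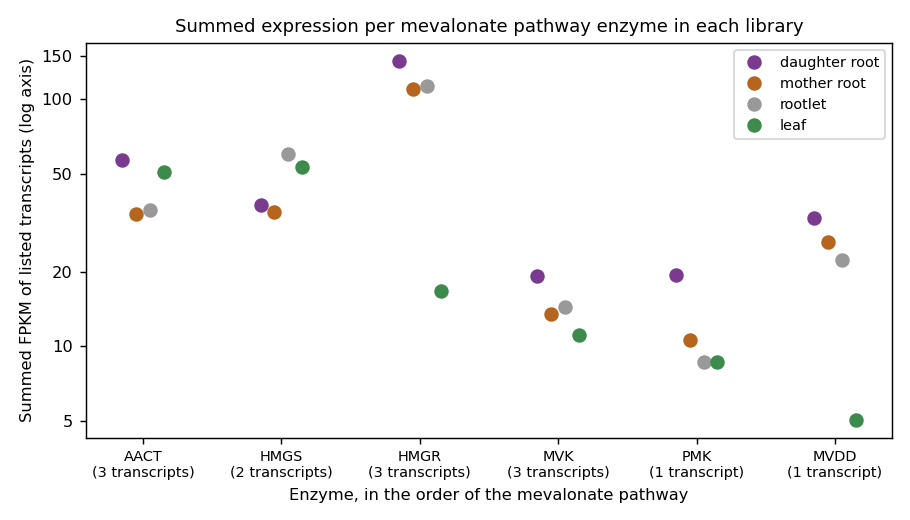
Summed FPKM on a log axis of the transcripts listed for each MVA enzyme, in the order of the pathway, in daughter root, mother root, rootlet and leaf. Each point is 1 library; HMGR and MVDD are the enzymes whose leaf point, at 16.7 and 5.05 FPKM, lies far below the root points.

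For daughter root over leaf, 3 of the 8 earlier transcripts were at least 2-fold higher, all of HMGR. TR50314|c1_g1_i1 had a ratio of 5.84, TR50314|c2_g1_i1 of 7.84 and TR50314|c2_g1_i5 of 14.2. TR50259|c0_g1_i1 was lower, with a ratio of 0.25, in a pair where 24.8% of all transcripts were at most 0.5-fold. The median was 2.11 for the 5 late transcripts and 1.61 for the 8 earlier ones. The 2.11 was the value of TR50024|c0_g1_i3, an MVK transcript with wide limits (0.880 to 6.13). By enzyme, daughter root over leaf was 1.74 for the MVK sum, 2.25 for PMK and 6.53 for MVDD. For mother root over leaf, MVDD was past 2-fold with 5.26, as were TR50314|c2_g1_i1 with 5.75 and TR50314|c2_g1_i5 with 17.0, and the AACT transcript TR49281|c2_g1_i10 was lower with 0.179 (21.7% of all were at most 0.5-fold).

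For daughter root over mother root, 3 of the 8 earlier transcripts were at least 2-fold higher (13.1% of all). These were TR49281|c2_g1_i10 of AACT with 9.14, TR44745|c0_g1_i1 of HMGS with 3.01 and TR50314|c1_g1_i1 of HMGR with 8.21, and TR50259|c0_g1_i1 was lower with 0.347 (17.6% of all were at most 0.5-fold). The medians were close, at 1.40 for the 5 late and 1.503 for the 8 earlier transcripts. The list of the MEP pathway, with isopentenyl diphosphate isomerase included, has 18 transcripts, of which 15 were tested for daughter root over leaf. None of them was at least 2-fold higher (27.2% of all), while 7 were at most 0.5-fold (24.8% of all). In this pair 4 had a ratio above 1, and the median ratio was 0.502, beside 1.04 for all. For mother root over leaf, 3 of 18 were at least 2-fold higher (27.0% of all) and 5 at most 0.5-fold (21.7% of all). For rootlet over leaf, 1 of 16 was at least 2-fold higher (26.6% of all) and 8 were at most 0.5-fold (26.3% of all).

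The profile of each enzyme over the 4 libraries was last set against the other 45 transcripts of the pathway table. Likeness was measured as the root mean square difference of log2(FPKM + 1), centred per transcript, so a small distance means that levels moved alike over 4 points. The nearest to MVDD was TR50314|c2_g1_i1 of HMGR, with a distance of 0.16, and 0.185% of the 49319 transcripts were as near. Its levels were 56.2 FPKM in daughter root, 41.2 in mother root, 41.8 in rootlet and 7.17 in leaf. It was chosen for this likeness, so no test was made of it. The next nearest to MVDD, TR50314|c2_g1_i5 of HMGR and TR53909|c0_g1_i7 of kaurene oxidase (KO), were far less alike, with distances of 0.71 and 0.80. TR50314|c2_g1_i1 and TR50314|c2_g1_i5 belong to the same Trinity gene, and the split of fragments between them is uncertain. With both summed, the ratio of MVDD over HMGR changed by 0.621 for daughter root over leaf (0.414 to 0.947). It changed by 0.413 for rootlet over leaf (0.268 to 0.647). The limits included 1 only for mother root over rootlet, at 1.21 (0.997 to 1.47). Against TR50314|c2_g1_i1 alone they included 1 in every pair. As this transcript was picked for its likeness to MVDD, that is no check of the match. Limits over leaf were also wide, such as 0.464 to 1.25 for rootlet over leaf. The sum of both HMGR transcripts did not keep the likeness. The levels of TR50314|c2_g1_i5 were 53.6 FPKM in daughter root, 64.5 in mother root, 65.8 in rootlet and 3.79 in leaf.

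PMK was nearest to TR54749|c2_g1_i1 of DXS, the first enzyme of the MEP pathway, with a distance of 0.27, and 4.41% of all transcripts were as near. It was picked as the nearest of 45 transcripts, so this share is no test of the likeness. With a pseudocount of 0.1 the nearest was TR39144|c0_g1_i1 instead. TR39144|c0_g1_i1 and TR39144|c0_g1_i2 of ISPD, a later MEP enzyme, followed with 0.28 and 0.36. The MVK sum was nearest to TR41484|c0_g1_i1 of ISPE, also of the MEP pathway, with 0.26, and 7.39% of all transcripts were as near. It was followed by TR53909|c0_g1_i4 of KO with 0.27, a transcript of at most 0.42 FPKM whose log values can hardly vary, and TR49281|c2_g1_i2 of AACT with 0.29. A flat profile such as that of MVK has many neighbours. Among the 3 enzymes themselves, MVK and PMK were 0.24 apart, MVK and MVDD 0.77, and PMK and MVDD 0.79. Of all transcripts, 6.05% were as near to MVK as PMK was, and 3.01% as near to PMK as MVK was. MVDD was far from both, with 62.0% of all as near to MVK and 57.3% as near to PMK. Seen from MVDD, 20.1% of all were as near as MVK and 21.6% as near as PMK.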

How the data were processed

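Total RNA of each tissue, from single biological replicates, was made into strand-specific poly(A) libraries. The authors trimmed the reads with Trimmomatic, assembled all tissues together with Trinity, removed redundancy with CD-HIT-EST, aligned reads with Bowtie 2 and quantified transcripts by RSEM. Per transcript, the deposited tables give lengths, expected counts (all whole numbers) and FPKM as the authors computed it. TPM and isoform percentages were not used. TPM scaling here is FPKM rescaled to an equal sum.

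Ratios, limits and distances were computed with scipy 1.17.1, pandas 2.3.3 and numpy 2.4.6 in Python 3.11.15, and drawn with matplotlib 3.10.9, after the functions were tested on simulated data. Counts of transcripts past 2-fold used those with at least 20 fragments in the pair, and profile distances a pseudocount of 1. With 1 library per tissue, no test was made. Limits for the MVK sum and the MVDD sum use summed counts, as if each fragment added the same FPKM, which makes them too narrow.

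The members and lists were chosen with earlier results of these data known. Named transcripts are the 5 members, other transcripts of their Trinity genes, earlier MVA transcripts past 2-fold, the 3 nearest profiles per enzyme and the 4 leaf markers. Changes of enzyme ratios between tissues, and HMGS without TR50259|c0_g1_i1, were added after the data were seen. Alternatives were TPM and median-of-ratios scaling over 35605 transcripts, pseudocounts of 1 and 0.1, other fragment minimums, a fold of 1.5, Trinity gene sums, fragment shares, fragments per base of full length and other definitions of MVK.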

Additional observations from a re-analysis of the deposited data

How the results depend on the processing

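With 1 library per tissue, no library could be left out. No paired analysis was possible because each tissue has 1 library. Median-of-ratios scaling shifted the median log2 ratio of all transcripts by 0.21 for daughter root over mother root, by -0.17 for mother root over rootlet and by -0.16 for mother root over leaf, and TPM shifted it by 0.18 for daughter root over leaf, 0.21 for mother root over leaf and 0.17 for rootlet over leaf. Of 150 member ratios recomputed under TPM, median-of-ratios scaling, pseudocounts of 1 and 0.1 and Trinity gene sums, 149 stayed within the counting limits, and the exception was MVDD for daughter root over mother root, at 1.43 with median-of-ratios scaling. The check was weak for many of them. The Trinity gene of PMK has 1 transcript, so its sums repeated the main ratios, and the limits of the low-count MVK transcripts were wide. Of the 150, 2 crossed 1, both with limits that included 1: TR50024|c0_g1_i4 for mother root over leaf, 0.920 with median-of-ratios scaling, and TR50024|c0_g1_i3 for mother root over rootlet, 0.937 with the Trinity gene sum. Limits excluded 1 for 11 ratios with median-of-ratios scaling and 13 with TPM, which added PMK for mother root over leaf, MVDD for mother root over rootlet (1.22) and TR50024|c0_g1_i4 for daughter root over leaf (1.64), and removed TR50024|c0_g1_i4 for daughter root over mother root (1.38).

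At a fold of 1.5, 11 of 29 member ratios were past the fold, against 6 at 2. Of all transcripts, 20.5% were at least 1.5-fold higher for daughter root over mother root. In the other pairs it was from 31.3% (mother root over rootlet) to 37.6% (mother root over leaf). By fragments instead of FPKM, TR50024|c0_g1_i2 held 55.0% of MVK in daughter root (47.6% by FPKM) and 50.6% in mother root (42.6%), and TR50024|c0_g1_i3 held 12.9% in daughter root (22.9%) and 15.9% in mother root (27.6%). With MVK taken as TR50024|c0_g1_i2 alone, MVDD over MVK was 3.58 in daughter root, 4.60 in mother root, 3.12 in rootlet and 0.994 in leaf, and PMK over MVK was 2.11, 1.84, 1.21 and 1.70 in these libraries, which turned its direction in mother root and rootlet. Of the 9 nearest profiles, 7 stayed among the nearest 3 with a pseudocount of 0.1, and 9 with TPM and with median-of-ratios scaling. The depth of the rootlet and leaf libraries limits what can be said of MVK there.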
